A study of Mus musculus with 18 samples.

Results

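The genes Ms4a4b, Ms4a6b, Ms4a4c, Ms4a6c, Ms4a6d and Ms4a7 of the Ms4a family were followed through 18 RNA libraries of T cells and dendritic cells sorted from mouse tumours. The 6 were listed by symbol out of 46983 genes in the deposited tables and were chosen by their levels in these libraries, as paralogues that follow T cell or myeloid content. Their pattern over the libraries is therefore given as a description, and nothing is read from it beyond the values. The tumours were subcutaneous MC38 tumours, grown from a mouse colon carcinoma line in 6-week-old C57BL/6 females, and treatment began at a mean size of 100 mm3 and lasted 2 weeks. The 3 cell types sorted were CD8+ T cells, T helper cells (the CD4+ T cell sort) and dendritic cells (DC). Each sort gave 3 libraries from mice that received anti-PD-1 antibody plus D18 (the D18 groups) and 3 from mice that received the antibody alone (the anti-PD-1 groups). D18 is named in the labels by that code alone and was given at 25 µg per mouse 1 time a week. The antibody, which blocks the inhibitory receptor PD-1, was given to both groups at 200 µg per mouse 2 times a week. No group went without the antibody, so each comparison asks what D18 added to it. Mice were pooled and then divided at random, and nothing says that the 3 libraries of a group came from separate mice. The p-values thus measure the spread between these libraries, which may be technical.

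Ms4a genes encode small membrane proteins that cross the membrane several times and sit beside immune receptors, whose signalling, trafficking or surface level they modify. The best known member is Ms4a1, which encodes the B cell antigen CD20, and Ms4a2 encodes the beta chain of the high-affinity IgE receptor of mast cells. In the mouse the Ms4a4 and Ms4a6 branches have been duplicated, so that close paralogues are used by different leukocytes. Ms4a4b is known as a T cell gene whose product binds the costimulatory receptor GITR, encoded by Tnfrsf18. Ms4a4c and Ms4a6c are known as interferon-induced genes of monocytes and macrophages. Ms4a6d is a macrophage gene whose product pairs with the complement receptor Vsig4, and Ms4a7 is used as a marker of tissue and tumour macrophages. Ms4a6b has been described in both T cells and myeloid cells.

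All 6 lie within 283.8 kb of chromosome 19 (mm10, with the gene models of GENCODE M21). From low to high coordinates, Ms4a7 (ENSMUSG00000024672.11, 11321039 to 11336146, minus strand) comes first, followed by Ms4a4c (ENSMUSG00000024675.19, 11404770 to 11427246, plus). Ms4a4b (ENSMUSG00000056290.15, 11443553 to 11467055, plus) and Ms4a6c (ENSMUSG00000079419.4, 11469366 to 11482192, plus) are neighbours. Ms4a6b (ENSMUSG00000024677.13, 11516512 to 11531256, plus) and Ms4a6d (ENSMUSG00000024679.10, 11586604 to 11604849, minus) complete the set. Reads could be shared between paralogues only in part. Of all windows of 50 bases in the longest coding transcript, 4.19% of Ms4a4b, 8.91% of Ms4a6b, 8.48% of Ms4a4c, 2.92% of Ms4a6d and 0% of Ms4a7 also occur in another gene. For Ms4a6c the share is 56.9%, mostly with BE692007, a gene model that overlaps 1088 of its exon bases. The values of Ms4a6c are uncertain for that reason, since the libraries keep no strand and a read in the overlap cannot be given to either gene.

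**Figure D1:**
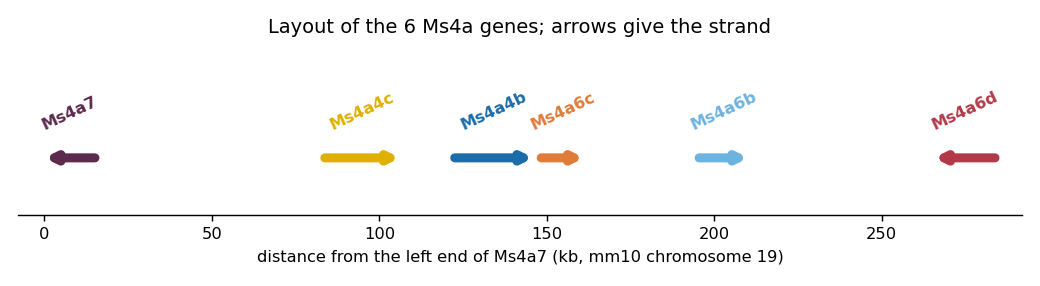
Position of the 6 genes along chromosome 19, in kilobases from the left end of Ms4a7 (mm10), with arrows pointing in the direction of transcription. The genes span 283.8 kb, with Ms4a4b between Ms4a4c and Ms4a6c.

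Paralogues with unlike patterns over these libraries have closely similar promoters, which are shown for that reason. The sequences are those of RefSeq on GRCm38.p6, from 250 bases before to 50 bases after the transcription start, and 5 of the 6 genes matched. Ms4a4b (chr19:11443308-11443607, plus strand) is set beside Ms4a4c (chr19:11407411-11407710, plus), and Ms4a6b (chr19:11518309-11518608, plus) beside Ms4a6c (chr19:11469118-11469417, plus). Capitals mark runs of at least 12 bases that are identical between the members of a pair when the windows are aligned.
Ms4a4b: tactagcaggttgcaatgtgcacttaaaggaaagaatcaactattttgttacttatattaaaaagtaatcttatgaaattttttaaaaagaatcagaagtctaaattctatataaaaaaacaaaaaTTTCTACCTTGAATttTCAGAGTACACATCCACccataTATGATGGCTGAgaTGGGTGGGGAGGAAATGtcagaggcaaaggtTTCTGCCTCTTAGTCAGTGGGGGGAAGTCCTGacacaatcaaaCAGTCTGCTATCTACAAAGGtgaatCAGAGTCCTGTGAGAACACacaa
Ms4a4c: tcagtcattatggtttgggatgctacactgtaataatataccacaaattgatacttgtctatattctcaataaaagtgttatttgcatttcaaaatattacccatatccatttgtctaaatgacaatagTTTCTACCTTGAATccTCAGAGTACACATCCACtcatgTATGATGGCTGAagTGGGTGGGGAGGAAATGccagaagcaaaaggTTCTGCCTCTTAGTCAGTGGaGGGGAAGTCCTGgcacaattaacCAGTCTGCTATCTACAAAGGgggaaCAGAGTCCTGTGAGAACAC
Ms4a6b: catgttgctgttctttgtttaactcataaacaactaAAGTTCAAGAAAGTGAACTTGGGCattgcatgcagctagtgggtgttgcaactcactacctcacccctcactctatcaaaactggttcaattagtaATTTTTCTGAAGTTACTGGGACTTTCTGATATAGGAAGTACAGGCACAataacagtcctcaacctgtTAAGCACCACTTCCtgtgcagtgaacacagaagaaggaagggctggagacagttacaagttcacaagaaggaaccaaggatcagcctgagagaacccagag
Ms4a6c: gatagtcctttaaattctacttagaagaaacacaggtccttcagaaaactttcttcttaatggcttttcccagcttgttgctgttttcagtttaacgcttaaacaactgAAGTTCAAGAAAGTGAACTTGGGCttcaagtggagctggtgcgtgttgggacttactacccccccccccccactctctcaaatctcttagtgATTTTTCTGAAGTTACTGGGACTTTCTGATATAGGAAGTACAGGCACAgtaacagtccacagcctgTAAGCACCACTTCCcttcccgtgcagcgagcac

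Ms4a4b and Ms4a4c shared 83.9% of 279 aligned bases, with a longest identical run of 20 bases and 131 bases in such runs. Ms4a6b and Ms4a6c shared 89.0% of 218 aligned bases, with a longest run of 48 bases and 86 bases in runs. The alignment gave 71.4% to 85.1% identity for every other pair of the 5 windows, over 44 to 255 bases, so the percentages alone do not set these pairs apart. No other pair held a run of 12 bases, and their longest runs were 5 to 7 bases. A search on both strands found GAGGAA, the core of PU.1 sites, 1 time each in Ms4a4b, Ms4a4c and Ms4a7 and in neither Ms4a6b nor Ms4a6c. That motif occurs in 28.3% of all 32851 RefSeq promoter windows of this length. TGTGGT, the core of RUNX sites, was found 1 time in Ms4a4c, against 16.8% of all windows. The core of interferon-stimulated response elements was in none of the 5, against 3.44% of all windows. The pair Ms4a4b and Ms4a4c thus shared its PU.1 core, which lies inside one of the identical runs.

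The libraries were shallow, with 11170 to 266392 reads assigned to genes and reads in 4292 to 11973 genes. Where no read was found, up to 3 remain possible at 95% confidence. Expressed as CPM (reads scaled to a common library total), that floor ran from 11.3 in the largest library to 269 in DC D18 replicate 2, the smallest. The smallest library held only 3 reads of the 6 genes. The reads carry no molecular identifiers, so such limits cover counting error only. Mitochondrial transcripts took 2.39% to 71.9% of the reads, and 3 mitochondrial genes (mt-Atp6, mt-Co2 and mt-Co3) split the libraries. They had no read at all in the first and second anti-PD-1 library of each sort, but reads in every other library. No label names this split, which leaves 1 anti-PD-1 library per sort on the side of the D18 libraries.

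Some libraries went against their sort. Of 17 T cell genes, summed as a T cell list, CD4+ anti-PD-1 replicates 1 and 2 held 26.4 and 146 CPM, with 0 and 1 reads of Cd3e. The remaining libraries of the T cell sorts held 2377 to 11832 CPM. DC libraries numbered 3 held 5387 CPM with D18 and 2584 CPM with anti-PD-1, with 69 and 34 reads of Cd3e, while the remaining DC libraries held 0 to 627 CPM. Genes of a 16-gene macrophage list were present throughout, at 1218 to 33151 CPM in the CD8+ sort, 6285 to 40886 CPM in the CD4+ sort and 11996 to 39022 CPM in the DC sort. A 16-gene dendritic cell list was at 1355 to 10309 CPM in the CD8+ sort, 1059 to 15082 CPM in the CD4+ sort and 4118 to 12794 CPM in the DC sort, and thus did not set the DC sort apart. In DC libraries 84.8% to 98.6% of its reads came from H2-Aa, H2-Ab1, H2-Eb1 and Cd74, the MHC class II genes that macrophages and B cells use too, while Flt3 and Zbtb46, which define dendritic cells, had at most 13 and 2 reads in any of them. A 5-gene list of natural killer cells held 0 to 286 CPM (at most 50 reads), with 0 reads of Ncr1, and a mast cell list at most 1 read in any library, with 0 of Cpa3 and Fcer1a.

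The libraries numbered 3 also resembled each other across sorts. Over 1199 genes, Pearson's r of log2(CPM + 100) between libraries numbered 3 of different sorts was 0.95 to 0.97 with D18 and 0.89 to 0.97 with anti-PD-1. Between libraries of different sorts of which neither was numbered 3 it was 0.26 to 0.77 with D18 and 0.52 to 0.87 with anti-PD-1. Where 1 of the pair was numbered 3 it was 0.57 to 0.87 with D18 and 0.68 to 0.89 with anti-PD-1. These are correlations across genes, which are not independent replicates, and the pairs share a treatment and a replicate number. Changes are therefore also given without the libraries numbered 3.

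Ms4a4b was the member that followed the T cell genes. It had 117, 843 and 63 reads in the CD8+ D18 libraries, against 103, 490 and 67 reads in the CD8+ anti-PD-1 libraries. In the CD4+ sort it had 52, 48 and 164 reads with D18, against 1, 1 and 54 reads with anti-PD-1. Its DC counts were 0, 0 and 197 reads with D18 and 1, 5 and 78 reads with anti-PD-1. Every library with at most 5 reads of Ms4a4b was one in which the T cell list was at 627 CPM or less, whatever the sort on its label. In CPM the means were 2023 ± 1180 with D18 and 1456 ± 1065 with anti-PD-1 in the CD8+ sort (SD, n = 3 each). They were 1203 ± 333 with D18 and 156 ± 259 with anti-PD-1 in the CD4+ sort, and 388 ± 672 with D18 and 165 ± 252 with anti-PD-1 in the DC sort. Only the CD4+ groups were free of overlap, and the standard deviation exceeded the mean in the 3 groups that hold libraries of both kinds, CD4+ anti-PD-1 and both DC groups.

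Ms4a6b was read in every sort, with ranges that overlapped. Its median was 1031 CPM in the CD8+ sort, 787 CPM in the CD4+ sort and 547 CPM in the DC sort. It had 58, 427 and 59 reads in the CD8+ D18 libraries and 80, 200 and 111 reads in the CD8+ anti-PD-1 libraries. The CD4+ counts were 45, 33 and 119 reads with D18 and 70, 118 and 87 reads with anti-PD-1, and the DC counts were 68, 0 and 131 reads with D18 and 46, 59 and 126 reads with anti-PD-1. It was thus read in T cell libraries and in libraries nearly without T cell genes. CD4+ anti-PD-1 replicates 1 and 2, with 1 read of Ms4a4b each, had 461 and 818 CPM of Ms4a6b. Mean levels were 1133 ± 431 CPM with D18 and 950 ± 154 CPM with anti-PD-1 in the CD8+ sort (SD, n = 3 each). They were 894 ± 153 CPM with D18 and 671 ± 186 CPM with anti-PD-1 in the CD4+ sort, and 377 ± 387 CPM with D18 and 592 ± 283 CPM with anti-PD-1 in the DC sort. The groups overlapped in every sort. Its 0 in DC D18 replicate 2 lies in the library where 3 reads equal 269 CPM.

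Ms4a4c, the paralogue of Ms4a4b, had reads in all 18 libraries. It had 17, 59 and 13 reads with D18 and 12, 41 and 78 reads with anti-PD-1 in the CD8+ sort. In CD4+ libraries the counts were 13, 22 and 33 reads with D18 and 116, 69 and 60 reads with anti-PD-1, and in DC libraries 54, 1 and 41 reads with D18 and 69, 160 and 107 reads with anti-PD-1. The highest levels stood in libraries with few or no T cell genes, DC anti-PD-1 replicates 1 and 2 at 1160 and 719 CPM and CD4+ anti-PD-1 replicate 1 at 765 CPM, but T cell libraries were not free of it. CD4+ D18 replicate 2, with a T cell list of 7158 CPM, was at 706 CPM. CD8+ D18 replicates 1 and 2, with 0 and 14 reads of Ms4a7, still held 305 and 221 CPM of Ms4a4c. Means were 231 ± 69.4 CPM with D18 and 304 ± 210 CPM with anti-PD-1 in the CD8+ sort (SD, n = 3 each). They were 388 ± 275 CPM with D18 and 583 ± 158 CPM with anti-PD-1 in the CD4+ sort, and 205 ± 102 CPM with D18 and 835 ± 285 CPM with anti-PD-1 in the DC sort. Only in the DC sort did the groups not overlap, with every D18 library below every anti-PD-1 library.

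Ms4a7 was the member most alike to the macrophage list over all 18 libraries. It had 0, 14 and 25 reads with D18 and 37, 44 and 135 reads with anti-PD-1 in the CD8+ sort. The CD4+ libraries held 1, 4 and 86 reads with D18 and 56, 141 and 55 reads with anti-PD-1, and the DC libraries 137, 2 and 107 reads with D18 and 88, 94 and 171 reads with anti-PD-1. Low counts stood in the D18 libraries numbered 1 and 2 of both T cell sorts. Means were 124 ± 172 CPM with D18 and 549 ± 361 CPM with anti-PD-1 in the CD8+ sort (SD, n = 3 each). They were 257 ± 325 CPM with D18 and 603 ± 327 CPM with anti-PD-1 in the CD4+ sort, and 510 ± 290 CPM with D18 and 967 ± 529 CPM with anti-PD-1 in the DC sort. In both T cell sorts D18 replicate 3 reached above the lowest anti-PD-1 library, so that the groups overlapped. In the DC sort they overlapped in CPM, while in reads divided by the authors' size factor, the scale of the test, D18 libraries had 74.3, 9.63 and 51.1 and anti-PD-1 libraries 93.2, 99.2 and 80.9.

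Ms4a6d ran close to Ms4a7. Its counts were 3, 36 and 31 reads with D18 and 8, 92 and 83 reads with anti-PD-1 in the CD8+ sort, and 3, 7 and 59 reads with D18 and 111, 81 and 55 reads with anti-PD-1 in the CD4+ sort. In the DC sort they were 127, 0 and 75 reads with D18 and 70, 107 and 99 reads with anti-PD-1. The CD4+ groups did not overlap in CPM, with 50.4, 225 and 430 CPM under D18 and 732, 561 and 463 CPM under anti-PD-1. Means were 235 ± 190 CPM with D18 and 585 ± 136 CPM with anti-PD-1 in that sort (SD, n = 3 each). They were 195 ± 180 CPM with D18 and 389 ± 252 CPM with anti-PD-1 in the CD8+ sort, and 370 ± 339 CPM with D18 and 746 ± 377 CPM with anti-PD-1 in the DC sort. The groups overlapped in those other sorts.

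Ms4a6c had the fewest reads of the set, with 0, 2 and 8 reads under D18 and 3, 7 and 29 reads under anti-PD-1 in the CD8+ sort. It had 5, 1 and 28 reads with D18 and 35, 30 and 6 reads with anti-PD-1 in the CD4+ sort, and 86, 0 and 21 reads with D18 and 18, 41 and 30 reads with anti-PD-1 in the DC sort. Its highest count was that of DC D18 replicate 1. Means were 36.7 ± 57.2 CPM with D18 and 92.5 ± 94.98 CPM with anti-PD-1 in the CD8+ sort (SD, n = 3 each). They were 107 ± 88.1 CPM with D18 and 163 ± 98.1 CPM with anti-PD-1 in the CD4+ sort, and 192 ± 233 CPM with D18 and 221 ± 71.0 CPM with anti-PD-1 in the DC sort. Its groups overlapped in all 3 sorts, and a read in the exon bases it shares with BE692007 cannot be given to either gene.

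**Figure D2:**
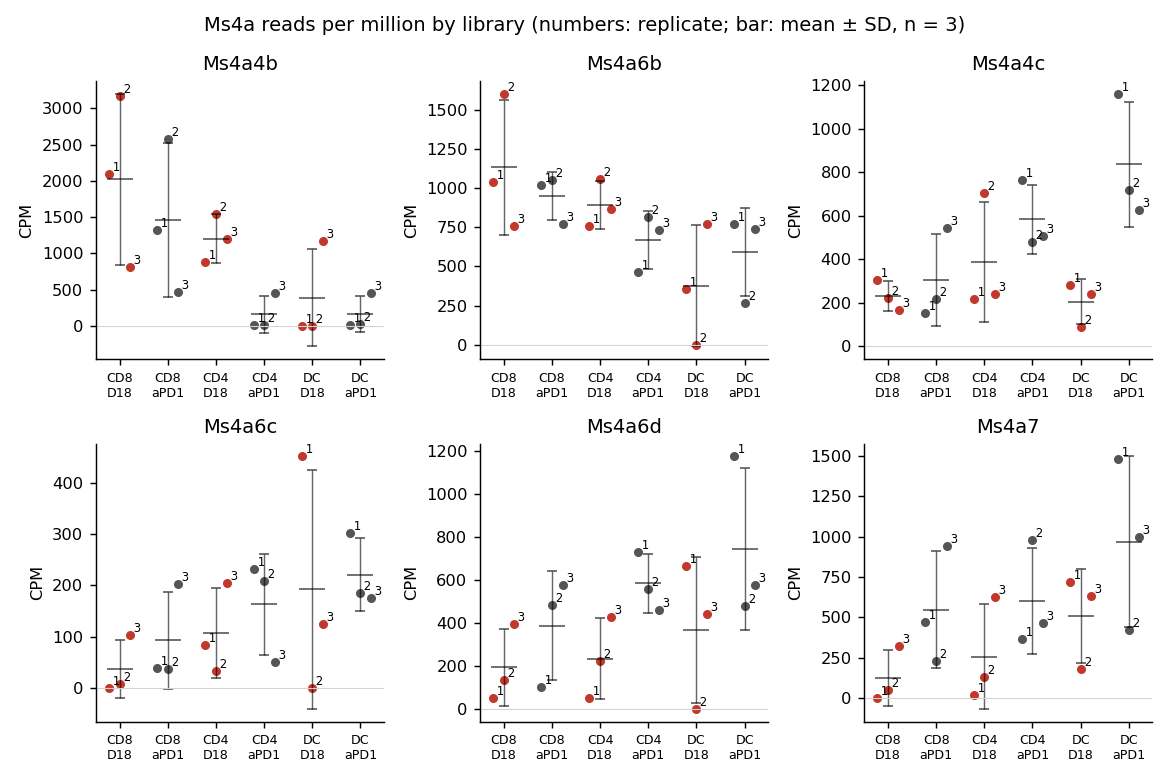
CPM of each gene in each library (points, numbered by replicate, D18 in red and anti-PD-1 in grey), with the mean and SD of each group of 3 (bars). Ms4a4b lies near 0 in CD4 anti-PD-1 libraries 1 and 2 and in the DC libraries numbered 1 and 2, while Ms4a7 is lowest in CD8 and CD4 D18 libraries 1 and 2.

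Reads of mitochondrial genes lower the CPM of all others, and they took 40.1%, 67.7% and 71.9% of the reads in CD4+ anti-PD-1 replicates 1 and 2 and DC anti-PD-1 replicate 2. Over nuclear reads alone the order of the CD4+ means of Ms4a6b turned, to 1076 ± 45.4 CPM with D18 and 1412 ± 971 CPM with anti-PD-1 (SD, n = 3 each), still with overlap. On that scale Ms4a4c averaged 444 ± 245 CPM with D18 and 1134 ± 434 CPM with anti-PD-1 in the CD4+ sort. Ms4a6d averaged 284 ± 246 CPM with D18 and 1183 ± 573 CPM with anti-PD-1 there, and Ms4a7 320 ± 423 CPM with D18 and 1410 ± 1396 CPM with anti-PD-1. All of these anti-PD-1 means were well above those over all reads. In the DC sort Ms4a4c had 275 ± 159 CPM with D18 and 1517 ± 921 CPM with anti-PD-1, with the highest value, 2557 CPM, in anti-PD-1 replicate 2. The direction of the remaining means, D18 against anti-PD-1, was as in CPM.

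The share of Ms4a4b in the Ms4a reads was lowest in the libraries with few or no T cell genes. Among the remaining libraries it did not follow the T cell list throughout. CD4+ anti-PD-1 replicate 3, with 6308 CPM of that list, had a lower share than D18 replicate 3 of the CD8+ sort (3680 CPM) and of the DC sort (5387 CPM). Ms4a4b made up 60% (95% exact binomial interval 52.8 to 66.9), 61.0% and 31.7% of the reads of the 6 genes in the CD8+ D18 libraries and 42.4%, 56.1% and 13.3% in the CD8+ anti-PD-1 libraries. It made up 43.7%, 41.7% and 33.5% in the CD4+ D18 libraries, against 0.257% (0.00651 to 1.42), 0.227% and 17.03% in the CD4+ anti-PD-1 libraries. The DC shares were 0% (0 to 0.778), 0% and 34.4% with D18 and 0.342%, 1.07% and 12.8% with anti-PD-1. The second 0 rests on 3 reads and allows up to 70.8%. The libraries numbered 3 lay within 31.7% to 34.4% with D18 and within 12.8% to 17.03% with anti-PD-1, whatever the sort. With D18, Ms4a6b took 29.6%, 24.3% and 22.9% of their reads and Ms4a7 12.6%, 17.6% and 18.7% in the CD8+, CD4+ and DC sorts. With anti-PD-1, Ms4a6b took 22.1%, 27.4% and 20.6% and Ms4a7 26.8%, 17.4% and 28.0%. The share of Ms4a7 in the CD4+ library (exact binomial interval 13.3 to 21.98) was below those of the CD8+ (23.01 to 30.9) and DC libraries (24.5 to 31.7) beyond counting error.

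**Figure D3:**
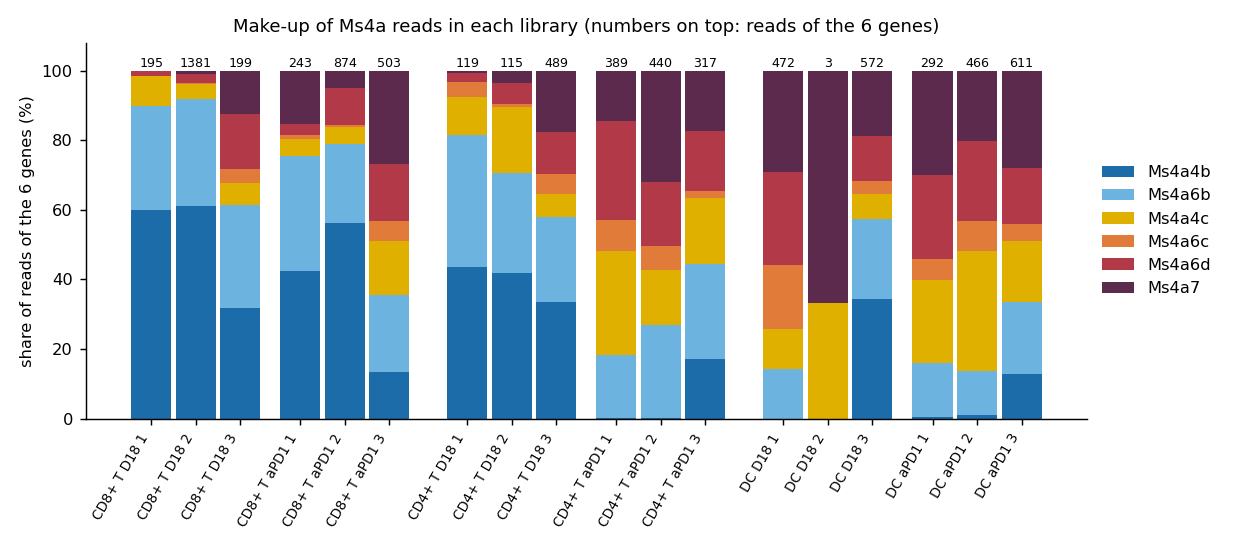
Share of the reads of the 6 genes taken by each gene (%, stacked bars) in each library, D18 left of anti-PD-1 in each sort, with the number of reads on top. The share of Ms4a4b is 31.7% to 61.0% in the CD8 D18 libraries and 0.227% to 1.07% in CD4 anti-PD-1 libraries 1 and 2 and in DC anti-PD-1 libraries 1 and 2.

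The ratio of Ms4a4b to Ms4a6b, genes of the same locus read in the same library, does not depend on library size. It was 2.02, 1.97 and 1.07 reads of Ms4a4b per read of Ms4a6b in the CD8+ D18 libraries and 1.29, 2.45 and 0.604 in the CD8+ anti-PD-1 libraries. The CD4+ ratios were 1.16, 1.45 and 1.38 with D18 and 0.0143, 0.00847 and 0.621 with anti-PD-1. In the DC sort they were 0 and 1.504 with D18, replicate 2 having no read of either gene, and 0.0217, 0.0847 and 0.619 with anti-PD-1. All 3 anti-PD-1 libraries numbered 3 thus lay between 0.604 and 0.621, and the D18 libraries numbered 3 between 1.07 and 1.504.

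Per length, the order of the members changed with the sort. By median CPM per kilobase of exon over the libraries of a sort, Ms4a6b (230) and Ms4a4b (194) led in the CD8+ sort, followed by Ms4a6d (153), Ms4a4c (125), Ms4a7 (62.03) and Ms4a6c (18.4). In the CD4+ sort the order was Ms4a4c (281), Ms4a6d (257), Ms4a6b (175), Ms4a7 (93.5), Ms4a4b (75.7) and Ms4a6c (70.2). The DC order was Ms4a6d (305), Ms4a4c (260), Ms4a7 (152), Ms4a6b (122), Ms4a6c (87.7) and Ms4a4b (2.24). Neighbours in these orders had ranges that overlapped. The place of Ms4a6c is uncertain, since 1088 of its 2050 exon bases overlap BE692007. A read there cannot be given to either gene, so its values per kilobase may be too low. The CD4+ order pools unlike groups, since Ms4a4b averaged 137 ± 38.0 CPM per kilobase of exon with D18 and 17.8 ± 29.5 with anti-PD-1 (SD, n = 3 each). The exons of Ms4a4b, Ms4a6b and Ms4a7 merged over all isoforms are much longer than 1 transcript, and by kilobase of the RefSeq coding transcript Ms4a6b led in both T cell sorts (611 and 467) and Ms4a7 in the DC sort (429).

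Over all 18 libraries, genes and lists were ranked by Pearson's r of log2(CPM + 100), a description in which the points share libraries, depth and sorts. With the T cell list r was 0.94 for Ms4a4b and 0.54 for Ms4a6b, against −0.52 for Ms4a4c, −0.69 for Ms4a6c, −0.51 for Ms4a6d and −0.52 for Ms4a7. With the macrophage list r was 0.82 for Ms4a7, 0.70 for Ms4a6d, 0.65 for Ms4a6c and 0.39 for Ms4a4c, against −0.17 for Ms4a6b and −0.46 for Ms4a4b. With the dendritic cell list r was 0.74 for Ms4a7, 0.77 for Ms4a6d, 0.71 for Ms4a6c and 0.51 for Ms4a4c, against −0.19 for Ms4a6b and −0.61 for Ms4a4b. Over all 18 libraries together, Ms4a7 alone of the myeloid members was thus closer to the macrophage list than to the dendritic cell list. Without the shallowest library (n = 17), r with the T cell list was 0.95 for Ms4a4b and 0.75 for Ms4a6b, and r with the macrophage list −0.42 for Ms4a6b. Within the CD8+, CD4+ and DC sorts, of 6 libraries each, Ms4a4b had r of 0.97, 0.94 and 0.87 with the T cell list. Ms4a7 had 0.94, 0.62 and 0.99 with the macrophage list in the same order, and Ms4a6d 0.73, 0.87 and 0.89. With the dendritic cell list Ms4a7 had 0.42, 0.97 and 0.67, and Ms4a6d 0.68, 0.94 and 0.89. Which list was closer thus varied with the sort for both genes. Ms4a6b changed sides between sorts, with r of 0.86, 0.66 and 0.18 with the T cell list and −0.64, −0.28 and 0.89 with the macrophage list. In DC D18 replicate 2, a point of the last of these, Ms4a6b had no read. No Ms4a gene is in any of the 3 lists.

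**Figure D4:**
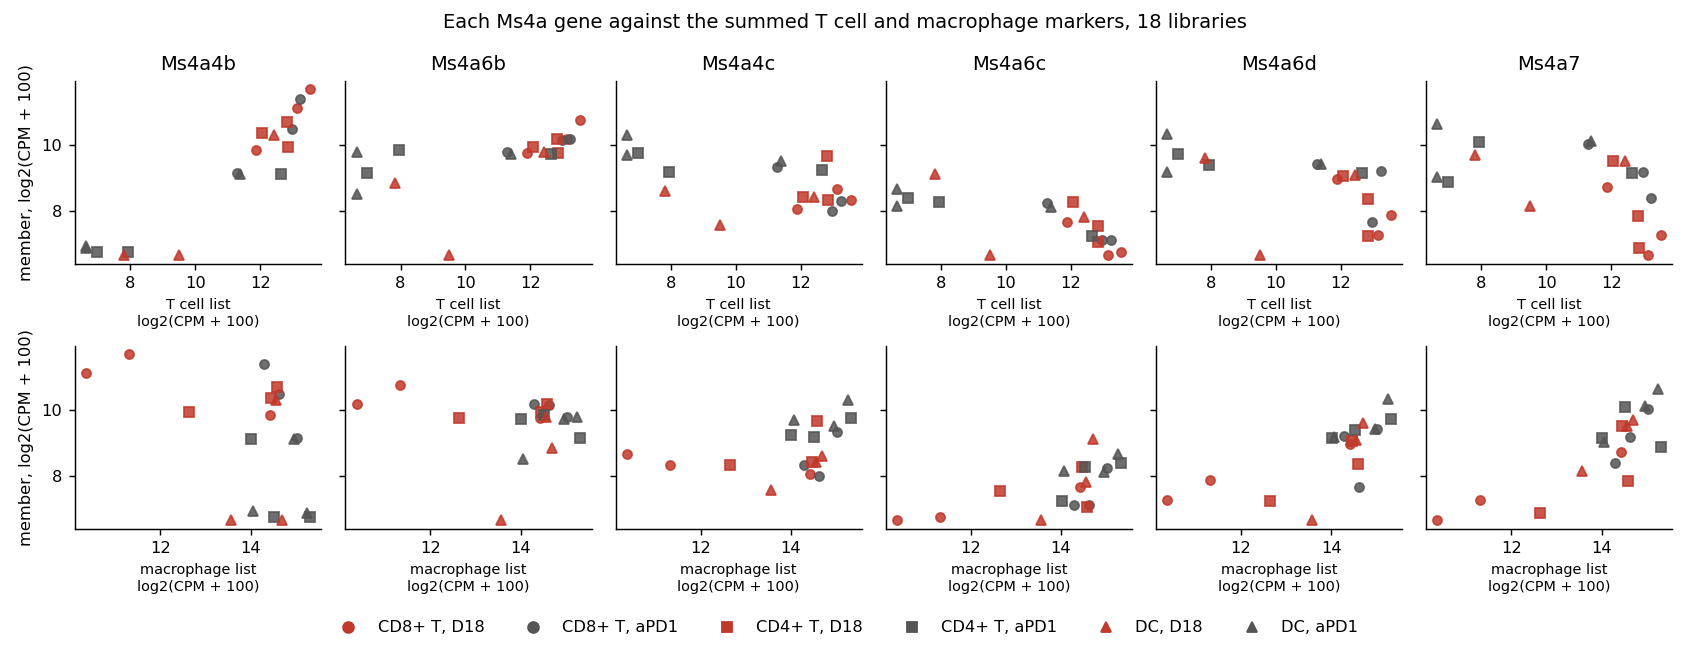
Level of each gene against the summed T cell list (top) and macrophage list (bottom), all as log2(CPM + 100), with 1 point per library (18 points, D18 red, anti-PD-1 grey, shapes for the sorts). Ms4a4b climbs with the T cell list (r = 0.94) and Ms4a7 with the macrophage list (r = 0.82), while Ms4a6b lies between 265 and 1603 CPM in every library but the shallowest, where it had no read.

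Among 1198 genes with a mean of at least 100 CPM, those most like Ms4a4b were Gzmb (r = 0.98), the granzyme B gene of cytotoxic lymphocytes, Cxcr6 (0.98), a chemokine receptor of tissue T cells, Cd3e (0.98), a chain of the T cell receptor complex, and Il2rb (0.97), a chain of the interleukin-2 receptor. Ms4a6b was most like Rap1b (0.96), a small GTPase, Rps3 (0.93), a ribosomal protein, Atp5c1 (0.93), a subunit of ATP synthase, and Lcp1 (0.92), an actin-bundling protein of leukocytes. Without the shallowest library these values were 0.89, 0.81, 0.80 and 0.75. Ms4a4c was less closely matched, with Cd72 (0.79), an inhibitory receptor of B cells and macrophages, Ifi204 (0.79), an interferon-inducible gene, Asah1 (0.77), acid ceramidase, and Arpc4 (0.76), an actin-nucleation subunit. Ms4a6c was most like Cd300c2 (0.85), a myeloid activating receptor, Ifi30 (0.85), a lysosomal reductase, Cd68 (0.83), a macrophage marker, and Fth1 (0.83), the ferritin heavy chain. For Ms4a6d the genes were Lair1 (0.95), an inhibitory collagen receptor, Ifi30 (0.94), the Fc receptor gene Fcgr2b (0.92) and Cd68 (0.91). For Ms4a7 they were the lysosomal proteases Ctsz (0.91) and Ctsh (0.90), Cd300c2 (0.90) and Olfml3 (0.88). All values are over the 18 libraries, in which the same few libraries are high or low for many genes.

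The changes with D18 were tested with limma over all genes of a sort with a mean of at least 10 normalised reads, and no member was called in any sort. Log2 changes are on the scale of log2(normalised reads + 1), D18 minus anti-PD-1, which understates changes of low genes. The members were chosen with part of these values known, so they serve as a description. Fewer cells of a type and less RNA per cell cannot be told apart in these bulk libraries.

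With D18 in the CD8+ sort no member passed the test, and the one farthest from 0 was Ms4a7. Log2 changes were 0.48 ± 0.62 for Ms4a4b and 0.10 ± 0.39 for Ms4a6b (SE), against −0.32 ± 0.57 for Ms4a4c, −1.13 ± 0.94 for Ms4a6d and −3.13 ± 1.28 for Ms4a7. Ms4a6c was too low to be tested. The median of the 5 tested members was −0.32, against −0.03 over all 1569 genes. By limma 0 of 5 passed (0% of all genes), with adjusted p = 0.599 for Ms4a7 and 0.726 or more for the others. At an unadjusted p under 0.05 there was 1, Ms4a7, against 8.29% of all genes, and by limma-voom also 0 passed. No member was free of overlap between the groups, whereas 6.88% of all genes had every D18 library higher and 7.65% every D18 library lower. The macrophage list, at 1218, 2455 and 21874 CPM with D18 and 25137, 19920 and 33151 CPM with anti-PD-1, was low in the same pair of D18 libraries as Ms4a7. The dendritic cell list was at 1541, 5556 and 7180 CPM with D18 and 1355, 2446 and 10309 CPM with anti-PD-1. The 9-gene monocyte list, part of which lymphocytes use too, was at 5052, 3927 and 1705 CPM with D18. With anti-PD-1 it was at 1330, 1339 and 1506 CPM, so that every D18 library was higher, unlike the macrophage list. The part of these lists in the change of Ms4a7 was not tested.

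Libraries of the same number deviated together in the CD8+ sort. With the replicate number as a block, limma called 20 of the 1569 genes in place of 0, and still 0 of the 5 members, with adjusted p = 0.160 for both Ms4a6d and Ms4a7 and 0.326 for Ms4a4b. With the mitochondrial split as a term, the changes rested on anti-PD-1 replicate 3 and were 1.54 for Ms4a4b, 0.12 for Ms4a6b, −1.59 for Ms4a4c, −2.27 for Ms4a6d and −4.38 for Ms4a7. That library had the lowest T cell list of the sort, 2377 CPM. Without both libraries numbered 3 the change of Ms4a4c turned to 0.38.

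The CD4+ sort held the largest difference among the members in absolute size, that of Ms4a4b. Its low counts stood in anti-PD-1 replicates 1 and 2, which held few T cell reads and also lacked the 3 mitochondrial genes. Ms4a4b differed by 4.09 ± 1.08 (log2 change ± SE) with adjusted p = 0.453 by limma. On the other side stood Ms4a7 at −2.62 ± 1.10, Ms4a6d at −2.24 ± 0.74, Ms4a4c at −1.34 ± 0.57 and Ms4a6c at −1.16 ± 0.93, while Ms4a6b was at −0.16 ± 0.53. The adjusted p was 0.453 for Ms4a7, Ms4a6d and Ms4a4c as well, which was the smallest among all 966 genes. By limma 0 of 6 passed (0% of all genes), and by limma-voom also 0. At an unadjusted p under 0.05 there were 4 of 6, against 10.4% of all genes, a count that the choice of the genes may carry. Every D18 library was higher for 1 member, Ms4a4b (5.28% of all genes), and lower for 1, Ms4a6d (9.21%). The median of the 6 members was −1.25, against 0.03 over all genes. The dendritic cell list was at 1059, 3145 and 8631 CPM with D18 and 8807, 15082 and 6275 CPM with anti-PD-1, and the macrophage list at 6285, 24458 and 22433 CPM with D18 and 40886, 23399 and 16415 CPM with anti-PD-1. Both lists overlapped between the groups, and their part in the changes was not tested.

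Anti-PD-1 replicates 1 and 2 of the CD4+ sort are the libraries with 0 and 1 reads of Cd3e. Reads were found for 4 and 12 of the 17 genes of the T cell list there, against all 17 in the remaining libraries of the sort. Without that pair the changes rested on replicate 3 of the group, which was assumed to vary like the D18 libraries that alone give the SE, and were 1.26 ± 0.77 for Ms4a4b, 0.19 for Ms4a6b, −0.65 for Ms4a4c, −1.42 for Ms4a6d and −1.86 for Ms4a7, with 0 genes called. The same pair lacks the 3 mitochondrial genes, so that this split and the cell content cannot be told apart. With the split as a term Ms4a6c was at 0.59, against −1.16 without it. Without both libraries numbered 3, the anti-PD-1 libraries left are that pair, nearly without T cell reads. Of 976 genes 35 were then called, 3 members among them, Ms4a4b at 5.43 (adjusted p = 0.00802 by limma), Ms4a6d at −3.33 (0.0440) and Ms4a7 at −4.16 (0.0420). Over all alternatives the adjusted p of Ms4a4b ran from 4.2e-06 to 0.9999, that of Ms4a6d from 0.0440 to 0.9999 and that of Ms4a7 from 0.0261 to 0.9999.

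All 6 members lay lower with D18 in the DC sort, as did 69.1% of all 886 genes tested. Log2 changes were −2.49 ± 0.85 for Ms4a4c, −2.44 ± 1.45 for Ms4a6d, −2.10 ± 1.41 for Ms4a6b, −1.56 ± 1.28 for Ms4a6c, −1.40 ± 0.85 for Ms4a7 and −0.79 ± 2.08 for Ms4a4b (SE). The median was −1.83, against −0.65 over all genes. By limma 0 of 6 passed (0% of all genes), with adjusted p = 0.551 to 0.876, by limma-voom also 0, and at an unadjusted p under 0.05 there was 1, Ms4a4c (6.88% of all genes). On the scale of the test every D18 library was lower for 2 members, Ms4a4c and Ms4a7 (19.9% of all genes), and higher for none (4.18%). Without DC D18 replicate 2, the library of 11170 reads, the changes were −1.79 ± 0.58 for Ms4a4c (adjusted p = 0.391 by limma), −0.55 for Ms4a6d and Ms4a7 alike, −0.23 for Ms4a6b, −0.05 for Ms4a6c and 0.31 for Ms4a4b. Ms4a4c was at 283 and 242 CPM in the remaining D18 libraries, against 626 to 1160 CPM with anti-PD-1. Its adjusted p ran from 0.129 to 0.998 over the alternatives. Marker lists moved as well, and their part was not tested. The dendritic cell list was at 9888, 4118 and 7360 CPM with D18 and 12794, 12450 and 7572 CPM with anti-PD-1, and the macrophage list at 26437, 11996 and 23976 CPM with D18 and 39022, 17001 and 31761 CPM with anti-PD-1. A B cell list was at 1206, 0 and 496 CPM with D18 and 151, 22.5 and 99.4 CPM with anti-PD-1, and a neutrophil list reached 1522 CPM (17 reads) in D18 replicate 2, against at most 35.4 CPM in the remaining DC libraries.

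**Figure D5:**
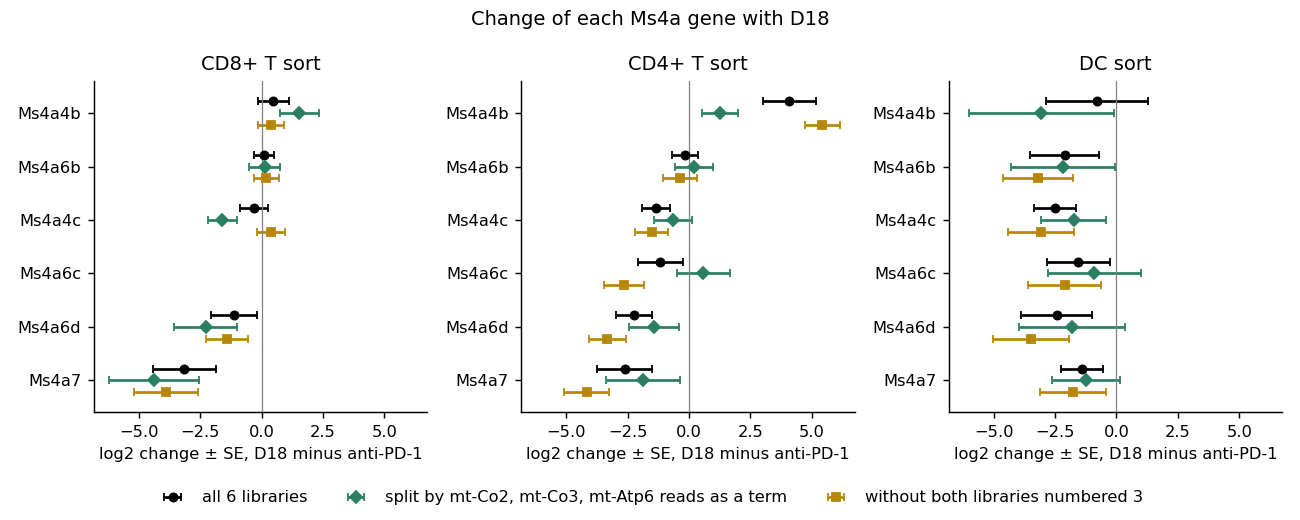
Log2 change of each gene, D18 minus anti-PD-1, with its SE, in each sort for all 6 libraries, with the split by mitochondrial reads as a term, and without both libraries numbered 3 (genes below the filter have no point). Ms4a4b in the CD4 sort ranges from 1.26 to 5.43 between these fits, and Ms4a6b in both T cell sorts stays within −0.38 to 0.20.

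Whether D18 changed a member differently in a pair of sorts was tested as a difference of changes. By limma 0 genes passed in any of the 3 pairs of sorts, of 916 (CD4+ minus CD8+), 744 (CD4+ minus DC) and 816 (CD8+ minus DC), and 18, 9 and 2 genes had an unadjusted p under 0.05 (1.97%, 1.21% and 0.245%). By limma-voom 0 passed too. The only member among them was Ms4a4b in CD4+ minus CD8+, at 3.60 ± 1.41 (SE, adjusted p = 0.992 by limma). Without the CD4+ libraries of at most 1 Cd3e read, which leaves 1 anti-PD-1 library in that sort, it was 0.78 ± 0.99, and without both libraries numbered 3 of each sort it was 5.06 (adjusted p = 0.0280). Ms4a4b in CD4+ minus DC was at 4.87 ± 2.37 and Ms4a4c in CD8+ minus DC at 2.17 ± 1.09 (adjusted p = 0.8504 and 0.986 by limma).

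The rest of the family had few reads, most of them of Ms4a4a. Of the 15 other Ms4a genes 6 had no read in any library, 7 had 1 to 10 reads over all 18 libraries and 2 had more. The 6 members took 97.5% of all Ms4a reads, 7680 reads against 196. Ms4a4a, a macrophage gene, had 154 reads in 14 libraries and at most 30 in 1 of them, CD4+ anti-PD-1 replicate 2, and Ms4a14 had 20 reads. In the CD8+ sort Ms4a4a had 49 reads, as many as the member Ms4a6c (49). It had 57 reads against 105 of Ms4a6c in the CD4+ sort, and 48 against 196 in the DC sort. Ms4a1, the CD20 gene, had 6 reads and Ms4a2 had none, in libraries where Cpa3, a mast cell protease gene, had none either. The related genes Tmem176a and Tmem176b had 72 and 170 reads, and Tmem176b in the CD4+ sort was the 1 other gene high enough to be tested (−1.68 ± 1.35, SE, adjusted p = 0.650 by limma).

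Genes of known partner proteins were given the same way. Tnfrsf18, which encodes the GITR receptor bound by Ms4a4b, was at −1.23 ± 0.45 in the CD8+ sort (adjusted p = 0.564 by limma), and at 1.97 ± 1.497 in the CD4+ sort (adjusted p = 0.640). In the CD8+ sort D18 libraries had 7.48, 15.7 and 11.8 normalised reads and anti-PD-1 libraries 39.1, 27.8 and 19.2, without overlap, while in CPM D18 replicate 2 (173) lay above anti-PD-1 replicate 3 (139). In that sort it lay on the other side of 0 from Ms4a4b (0.48 ± 0.62). The CD4+ libraries had 21.2, 41.3 and 9.23 normalised reads of Tnfrsf18 with D18 and 0, 1.16 and 73.4 with anti-PD-1. The low pair is the one nearly without T cell reads, and anti-PD-1 replicate 3 lay above every D18 library. Vsig4, whose product pairs with Ms4a6d, had 0 reads in all 18 libraries, which hold 1047 reads of Ms4a6d. Trem2, a lipid receptor linked to the human MS4A4A protein, was at −2.96 ± 1.39 in the CD8+ sort, −0.13 ± 0.51 in the CD4+ sort and −0.55 ± 0.80 in the DC sort. Its signalling chain Tyrobp was at −1.24 ± 1.21, −2.39 ± 0.85 and −0.24 ± 0.74 in the same order (SE, adjusted p = 0.453 or more by limma for both genes). Clec7a, the Dectin-1 gene, had 109 reads in all and was too low to be tested. Of the partner genes, 0 of 3 tested in each T cell sort passed and 0 of 2 in the DC sort.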

How the data were processed

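RNA of T cells (CD8+ or helper) and of dendritic cells, sorted from tumours, was measured in 18 Smart-Seq2 libraries, which keep no strand. Per the submitters' processing notes, STAR 2.4.0, HTSeq 0.6.1, DESeq2 and mm10 were used. The deposited values, in 1 table per sort, are log2 values that the authors normalised with a size factor per library, by a variance-stabilising transform the labels do not name. Undoing it gave whole reads (within 0.001 of a whole number) for 100% of values. The depth was 11170 to 266392 reads per library. The 6 genes, the marker lists and the alternatives were chosen with earlier results of these data known. The named genes are the 6, the rest of the Ms4a family list, 5 partner genes and the 4 genes most like each of the 6.

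Changes were tested in each sort, without a block, on log2(normalised reads + 1) with limma 3.58.1 (R 4.3.3, eBayes with its trend and robust options). Genes with a mean of at least 10 were tested, with the Benjamini-Hochberg adjusted p held against 0.05. Differences between sorts were limma contrasts of contrasts. Calls over all genes were also made with limma-voom on the recovered reads. The code of the fit was run on simulated counts with planted changes, which says nothing on the spread between these libraries. Levels are CPM over recovered reads, with no test between sorts, since each table was normalised on its own. Likeness is Pearson's r of log2(CPM + 100) over genes with a mean of at least 100 CPM. The rest was done in Python 3.11.15, with pandas 2.3.3, numpy 2.4.6 and scipy 1.17.1, and drawn with matplotlib 3.10.9.

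Alternatives were other pseudocounts, filters and scalings, the deposited log2 values as they stand, the replicate block, the split by reads of 3 mitochondrial genes as a term, and libraries left out. Replicate numbers were checked for pairing from each library's deviations from its group mean. Between same-numbered libraries these correlated at 0.36, 0.51 and 0.56 in the CD8+ sort, −0.14, 0.15 and −0.20 in the CD4+ sort, and 0.03, −0.09 and 0.14 in the DC sort. Same-numbered libraries thus deviated together at every number in the CD8+ sort only. Nothing in the labels says that a number marks a shared mouse or day, and why they did so was not tested.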

Additional observations from a re-analysis of the deposited data

How the results depend on the processing

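Of 283 recalculated changes of single members, 261 kept their direction and their side of the threshold, 16 turned direction and 6 passed where the reported value had not. The turned values lay between −0.063 and 0.59. In the CD8+ sort, Ms4a4c was at 0.38 without both libraries numbered 3, and with 1 library left out at a time it ran from −0.76 to 0.32, Ms4a4b from −0.044 to 0.99 and Ms4a6b from −0.063 to 0.21, with the turned ends without anti-PD-1 replicate 3 (Ms4a4c, Ms4a4b) or D18 replicate 2 (Ms4a6b). In the CD4+ sort, Ms4a6b was at 0.023 with limma-voom, at 0.19 with the mitochondrial split as a term and without the libraries of at most 1 Cd3e read, and from −0.44 to 0.29 with 1 library left out, and Ms4a6c was at 0.59 with the split. In the DC sort, Ms4a4b was at 0.13 with a pseudocount of 10, at 0.11 with quantile normalisation, at 0.31 without D18 replicate 2 (the 1 library under 20000 reads) and from −1.76 to 0.34 with 1 library left out, and Ms4a6c was at 0.21 with limma-voom. The CD4+ minus CD8+ difference of Ms4a4b was −0.27 with the split. The count of genes called, 0 in each comparison, was 22 in the CD8+ sort and 29 in the CD4+ sort without the filter on low values, 1 in the CD8+ sort with the deposited log2 values, 20 there with the replicate block, and 1 in the DC sort with quantile normalisation. The count of members called was 0 in each sort, and 2 in the CD4+ sort without the filter, Ms4a4b (adjusted p = 4.2e-06 by limma) and Ms4a7 (0.0261). Without both libraries numbered 3 the counts were 35 genes and 3 members in the CD4+ sort, 1 gene in the DC sort and 15 genes for CD4+ minus CD8+. Leaving out 1 library at a time gave 0 to 3 genes in the CD8+ sort, 0 to 20 genes and 0 to 1 members in the CD4+ sort, and 0 to 19 genes for CD4+ minus CD8+. The highest counts for the CD4+ sort and for that difference came without CD4+ anti-PD-1 replicate 3, which leaves only anti-PD-1 libraries of at most 1 Cd3e read (Ms4a4b 5.50, adjusted p = 0.00186 by limma). The replicate block called 0 genes in the CD4+ and DC sorts and changed no call of a member. The cause of the other shifts was not tested. Ms4a4b in the DC sort without both libraries numbered 3, and Ms4a6c in the CD4+ sort without the libraries of at most 1 Cd3e read, fell below the filter. Mean levels stayed within 1 SD in 133 of 144 recalculations, and the 11 others were over nuclear reads, 9 of them in the anti-PD-1 groups of the CD4+ and DC sorts. Without the shallowest library, an omission chosen after the data were seen, 1 of the 4 genes most like Ms4a6b and 1 of those most like Ms4a4c were the same. Depth limits Ms4a4b, Ms4a6c, Ms4a6d and Ms4a7, each with counts of 0 to 8 in several libraries.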

Other observations

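The anti-PD-1 libraries numbered 3 had nearly the same ratio of the T cell gene Ms4a4b to Ms4a6b whatever cell type they were sorted as. In reads of Ms4a4b per read of Ms4a6b, the D18 libraries numbered 3 had 1.07 in the CD8+ sort, 1.38 in the CD4+ sort and 1.504 in the DC sort, and the anti-PD-1 libraries numbered 3 had 0.604, 0.621 and 0.619 in the same order. Libraries numbered 1 and 2 of both treatments, those nearly without T cell genes included, ran from 0.00847 to 2.45 where both genes had reads. CD4+ D18 replicates 1 and 2 had 1.16 and 1.45, near the D18 libraries numbered 3. In the DC sort, D18 replicate 3 had 87 reads of Cd8a and anti-PD-1 replicate 3 had 71, against 0 to 3 in the remaining DC libraries. In the CD4+ sort, D18 replicate 3 had 83 reads of Cd8a beside 2 of Cd4. No test was made of how these libraries came about.

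DC D18 replicate 1 held 86 reads of Ms4a6c, 18.2% of its Ms4a reads. In the 5 other libraries with at most 5 reads of Ms4a4b the share was 0% to 8.997%, the 0% resting on 3 reads. The same library held the highest count of Lyz2, a myeloid lysozyme gene, with 2068 reads, and 34 reads of Cd79a, a B cell gene, beside 24 reads of T cell list genes. A read in the exon bases that Ms4a6c shares with BE692007 cannot be given to either gene.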
